A study of Homo sapiens with 37 samples.

Results

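The genes described here are the protein-coding members of the SRSF, HNRNP and KHDRBS families of splicing factors, measured in K562 cells with and without disruption of ZBTB7A, a transcriptional repressor that has been linked to splicing through KHDRBS1. Members were all rows whose Ensembl identifier maps to a protein-coding symbol that starts with SRSF, HNRNP or KHDRBS, with pseudogenes and antisense genes left out. They were 34 of the 32055 genes counted: 12 SRSF, 20 HNRNP and 2 KHDRBS genes. Of these, 30 held enough UMIs to be tested, and HNRNPCL1, KHDRBS3, SRSF1 and SRSF12 did not. Another 8 symbols that fit the rule, among them HNRNPA1, HNRNPH2, HNRNPUL2 and KHDRBS2, were not analysed here.

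The K562 line was established from a human erythroleukemia. The group labelled KO received Cas9 with 1 of 2 gRNAs against ZBTB7A, and the group labelled Control received the vector without a gRNA. Both groups were grown as clones from sorted single cells, and the ZBTB7A status of clones was checked by Western blot and Sanger sequencing according to the methods of the study. The labels give 26 KO and 11 Control libraries, each with its well barcode, and name no clone, gRNA or batch. Several libraries may therefore stem from the same clone, and p-values measure only the spread between these libraries.

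SR proteins carry RNA recognition motifs and a tail rich in arginine and serine. They bind enhancers in exons and help the U1 and U2 particles to find splice sites. The hnRNP proteins coat nascent pre-mRNA, and many of them repress the exons that they bind. KHDRBS proteins bind RNA through a KH domain, and KHDRBS1, also called Sam68, is a target of Src family kinases that sets splice choices in transcripts such as BCL2L1 and CD44. Counts from the 3′ end give the amount of each transcript and do not show how it was spliced.

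The promoters of 4 members are shown because the results below turn on these genes: KHDRBS1 as the factor tied to ZBTB7A, SRSF8 and HNRNPLL as the largest rise and fall among the members tested, and HNRNPD as the member whose level split the KO libraries. They are RefSeq sequences on GRCh38.p14, from 250 bases before to 50 bases after the start used there. For HNRNPLL and HNRNPD that start differs from the GENCODE position of the gene used below, and the window lies inside the gene. Capitals mark the GC box GGGCGG, the CCAAT box CCAAT, the TATA box TATAAA, the E-box of MYC and MAX CACGTG and the ETS core CCGGAAG, each searched on both strands.
KHDRBS1 (chr1:32013618-32013917, plus strand): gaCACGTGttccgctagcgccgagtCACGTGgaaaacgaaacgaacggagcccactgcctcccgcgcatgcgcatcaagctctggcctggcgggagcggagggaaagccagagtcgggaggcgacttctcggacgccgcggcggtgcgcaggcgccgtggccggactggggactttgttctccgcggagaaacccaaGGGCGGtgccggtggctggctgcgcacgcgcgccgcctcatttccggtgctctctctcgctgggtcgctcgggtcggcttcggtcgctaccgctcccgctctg
SRSF8 (chr11:95066669-95066968, plus strand): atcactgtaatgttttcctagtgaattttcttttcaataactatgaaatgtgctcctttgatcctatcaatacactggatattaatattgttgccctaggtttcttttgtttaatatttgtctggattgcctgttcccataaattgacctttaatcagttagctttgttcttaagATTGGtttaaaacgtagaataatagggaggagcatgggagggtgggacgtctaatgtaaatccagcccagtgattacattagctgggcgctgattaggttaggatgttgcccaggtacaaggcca
HNRNPLL (chr2:38602879-38603178, minus strand): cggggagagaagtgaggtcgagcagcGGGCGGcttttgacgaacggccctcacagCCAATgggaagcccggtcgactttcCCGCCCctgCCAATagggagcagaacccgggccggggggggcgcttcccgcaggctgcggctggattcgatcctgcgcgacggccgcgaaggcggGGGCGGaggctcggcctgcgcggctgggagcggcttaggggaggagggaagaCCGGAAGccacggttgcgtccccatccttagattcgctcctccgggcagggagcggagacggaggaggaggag
HNRNPD (chr4:82373942-82374241, minus strand): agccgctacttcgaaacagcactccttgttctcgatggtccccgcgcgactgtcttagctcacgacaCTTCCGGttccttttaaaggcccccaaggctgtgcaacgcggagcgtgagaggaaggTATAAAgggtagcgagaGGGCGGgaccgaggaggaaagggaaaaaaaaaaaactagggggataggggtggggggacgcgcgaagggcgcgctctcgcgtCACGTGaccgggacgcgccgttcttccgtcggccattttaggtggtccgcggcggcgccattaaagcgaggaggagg

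Of the 34 members, 31 were matched to a RefSeq promoter. The GC box lay in 51.6% of them and in 45% of all 35116 promoters of the same length, and the CCAAT box lay in 51.6% and 34.6%. The TATA box was found in 16.1% of the members' promoters and in 11.5% of all, the E-box in 16.1% and 7.26%, and the ETS core in 12.9% and 10.3%. The GATA motif AGATAA was in none of the 31 and in 10.3% of all promoters. The promoter of SRSF8 had a GC content of 38%, the lowest of the 31, while the others ranged from 45.3% to 77%. SRSF8 is also unusual in its structure: its transcript has 1 exon, as has that of HNRNPA0, whereas its closest relative SRSF2 has 3.

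Total UMIs ranged from 1070250 to 4270901 in KO libraries (median 2030965) and from 563235 to 4710809 in Control libraries (median 3518944). Barcodes rich in G and C (at least 4 of 6 bases) marked 12 KO libraries and 1 Control library, and AT-rich barcodes (at most 2) marked 12 KO and 8 Control libraries, so that barcode class and group partly overlap. Erythroid markers of K562 were present, with GATA1 between 7.70 and 8.55 log2 CPM, and of 8 such markers tested 2 were called higher and 2 lower in KO libraries. Each count was 25% of the markers, while 17.7% of all genes tested were called higher and 16.2% lower. The T cell gene CD3E held 6 UMIs in all libraries together. ZBTB7A itself ranged from 5.44 to 6.41 log2 CPM in KO libraries (median 5.94) and from 5.27 to 6.195 in controls (median 5.84), with a log2 fold change of 0.12 (SE 0.0902, adjusted p = 0.331). A 3′ count does not read the edited site, so it does not check the labels. KO replicates 4, 5, 10, 22, 24 and 25 stood apart from the other libraries in HNRNPD and HNRNPDL, and results are therefore also given without them.

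Most members did not pass the test between KO and Control libraries. An adjusted p below 0.05 (edgeR) was reached by 5 of the 30 members tested, or 16.7%, while 33.8% of all 10661 genes tested were called. SRSF8, SRSF9 and SRSF6 were higher in KO libraries (17.7% of all genes were called in this direction), and HNRNPLL and HNRNPR were lower (16.2%). No member also passed an absolute log2 fold change of 0.5, which 10.2% of all genes did, 6.65% of them higher and 3.53% lower in KO libraries. At an unadjusted p below 0.05 the number of members was 6 of 30, while 43.6% of all genes tested passed. Within AT-rich barcodes alone (12 KO and 8 Control libraries), 3 of these 30 members and 25.4% of 11092 genes tested had an adjusted p below 0.05. This fit holds fewer libraries, so a call lost in it does not by itself show a dependence on barcode class.

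Differences of the members were small. Their median log2 fold change was -0.01, with 14 values above 0 and 16 below, and the median over all genes tested was -0.00462. The values ran from -0.27 for HNRNPLL to 0.33 for SRSF8. The median absolute log2 fold change was 0.0572 for the members and 0.152 for all genes, or 0.134 for the 8394 genes tested within the range of the members' mean levels. The median biological coefficient of variation was 0.0828 for the members, 0.125 for all genes and 0.113 for the genes of that range. These contrasts are not matched for level, since the range is wide. The median level was 8.69 log2 CPM for the members and 5.13 for all genes. Among genes of like level, the coefficients of the members lay between percentile 0.444 (HNRNPK) and percentile 85.5 (HNRNPDL).

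**Figure D1:**
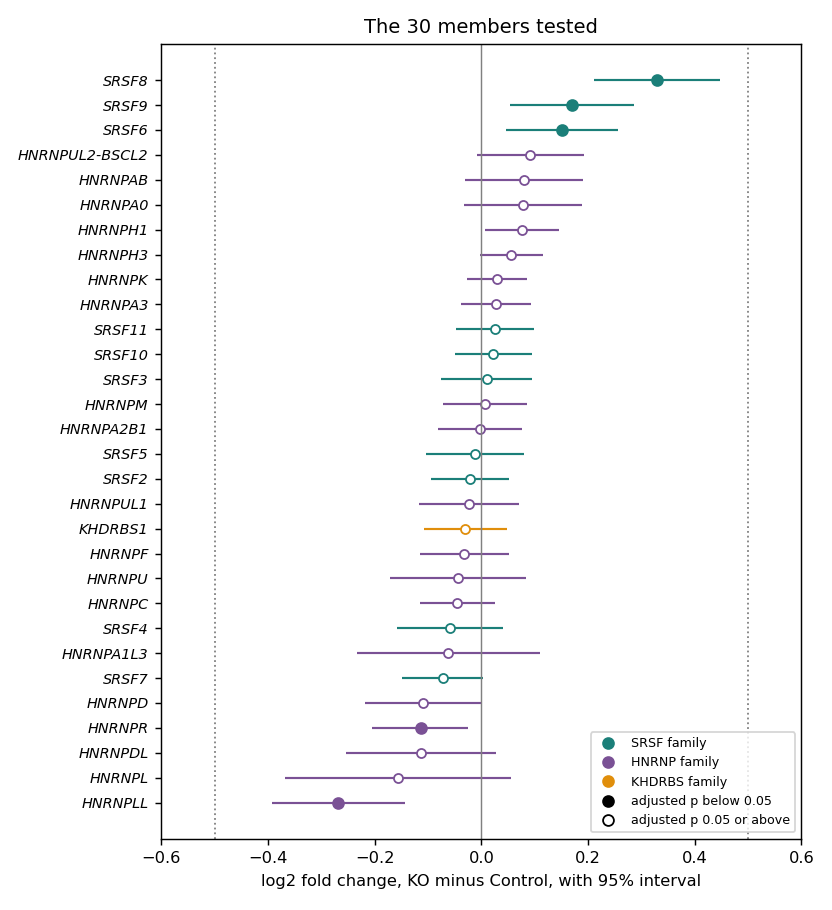
Log2 fold change of KO against Control libraries (x axis) for the 30 members tested (y axis), with 95% intervals as lines, filled points for an adjusted p below 0.05 and dotted lines at an absolute value of 0.5. The 5 filled points are SRSF8, SRSF9 and SRSF6 on the right and HNRNPR and HNRNPLL on the left, and no point lies beyond the dotted lines.

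Together the members held 1.37% ± 0.0588 of all UMIs in KO libraries (SD, n = 26) and 1.35% ± 0.0806 in Control libraries (SD, n = 11). The lowest and highest shares were 1.25% and 1.46% in KO libraries and 1.25% and 1.53% in controls, so that the groups overlapped over almost their whole range. HNRNP genes contributed 0.997% ± 0.0496 in KO and 0.987% ± 0.0593 in Control libraries. The SRSF share was 0.326% ± 0.0125 against 0.318% ± 0.0209, and the KHDRBS share was 0.0479% in both groups, with SDs of 0.00359 and 0.00393.

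Because each UMI is a captured molecule, levels can be compared between genes without a correction for length. HNRNPA2B1, a packaging protein that also acts in RNA transport, was the most abundant member with a mean of 3030 CPM, followed by SRSF3, a small SR protein with a part in mRNA export, with 910 CPM. In KO libraries HNRNPA2B1 ranged from 11.38 to 11.73 log2 CPM (median 11.55) and in controls from 11.47 to 11.76 (median 11.53). SRSF3 ranged from 9.66 to 9.998 (median 9.85) and from 9.68 to 10.14 (median 9.76). The groups overlapped widely for both genes, whose log2 fold changes were -0.00208 (SE 0.0400, adjusted p = 0.982) and 0.01 (SE 0.0436, adjusted p = 0.900).

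KHDRBS1 did not differ detectably between the groups. Its level was 8.72 to 9.05 log2 CPM in KO libraries (median 8.93) and 8.79 to 9.13 in controls (median 8.91). No KO library exceeded the highest control and 5 lay below the lowest. The log2 fold change was -0.03 (SE 0.0398, adjusted p = 0.595), with a 95% interval that spans a fall of 7.24% and a rise of 3.35%. The mean levels differed by -0.03, with p = 0.44 in a permutation test (two-sided). Within AT-rich barcodes the log2 fold change was 0.00363 (SE 0.0483, adjusted p = 0.978). Its relative KHDRBS3 had between 1 and 14 UMIs in KO libraries and between 1 and 16 in controls, too few for the test. Its summed counts gave 2.71 CPM in KO libraries (95% Poisson interval 2.31 to 3.16) and 2.84 in controls (2.31 to 3.46). The intervals cover counting error only.

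SRSF8, an SR protein encoded by a retrotransposed copy of SRSF2, rose most among the 30 members tested. It ranged from 6.34 to 6.81 log2 CPM in Control libraries (median 6.57) and from 6.70 to 7.31 in KO libraries (median 6.95). The 20 highest KO libraries lay above all controls, and the other 6 lay within the range of the controls. The log2 fold change was 0.33 (SE 0.0607, adjusted p = 4.7e-05), a rise of 25.7%. It was 0.365 (SE 0.0686, adjusted p = 0.000346) within AT-rich barcodes and 0.31 (adjusted p = 0.000308) without the 6 KO libraries that stood apart.

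The difference was not shared by SRSF2, a factor of constitutive and regulated splicing that is mutated in myeloid neoplasms. SRSF2 lay between 8.75 and 9.23 log2 CPM in KO libraries (median 8.93) and between 8.82 and 9.15 in controls (median 8.96), with a log2 fold change of -0.02 (SE 0.0374, adjusted p = 0.693). Within a library, the log2 ratio of SRSF2 to SRSF8 was 1.99 ± 0.219 in KO libraries (SD, n = 26) and 2.34 ± 0.167 in controls (SD, n = 11), and 20 KO libraries fell below the lowest control. The last 500 bases of the transcripts of both genes share no exact run longer than 8 bases, so reads of these parts can be told apart.

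SRSF9 and SRSF6 rose by less. SRSF9, a short relative of SRSF1, ranged from 5.501 to 6.08 log2 CPM in controls (median 5.65) and from 5.36 to 6.12 in KO libraries (median 5.79). The ranges overlapped almost entirely, and only 1 KO library lay above the highest control. Its log2 fold change was 0.17 (SE 0.0594, adjusted p = 0.0236). This call was lost within AT-rich barcodes (log2 fold change 0.15, adjusted p = 0.201) and without the 6 KO libraries that stood apart (0.145, adjusted p = 0.0615). It was also lost over all libraries with barcode class as covariate (0.149, adjusted p = 0.0755). Of the last 1000 bases of its transcript, 491 overlap GATC on the opposite strand.

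SRSF6, which binds exonic enhancers and is a close relative of SRSF4 and SRSF5, ranged from 6.22 to 6.65 log2 CPM in controls (median 6.44) and from 6.24 to 6.86 in KO libraries (median 6.58). The 8 highest KO libraries lay above all controls. Its log2 fold change was 0.15 (SE 0.0533, adjusted p = 0.0248), and 0.20 (SE 0.0622, adjusted p = 0.0178) within AT-rich barcodes. It missed the threshold without the 6 KO libraries (0.12, adjusted p = 0.0795) and without Control replicate 1 (0.13, adjusted p = 0.0564).

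**Figure D2:**
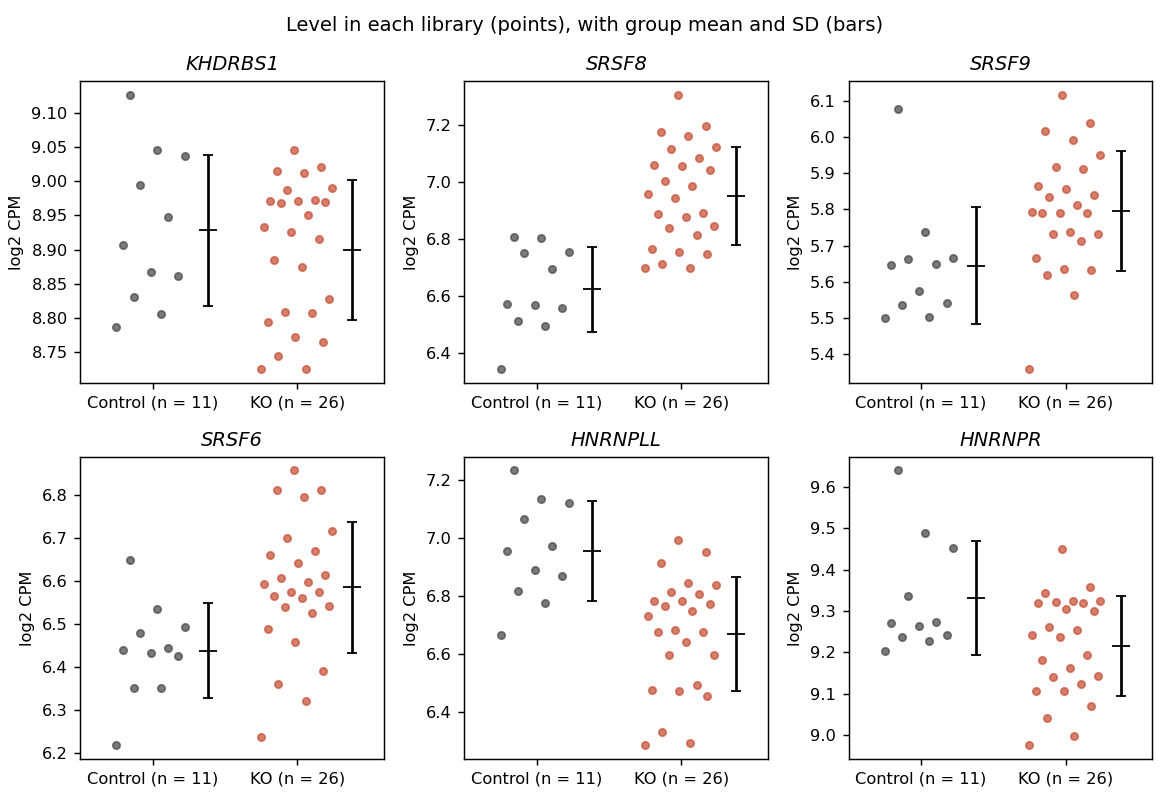
Level in log2 CPM (y axis) of KHDRBS1 and the 5 members with an adjusted p below 0.05 in each Control and KO library (points), with the mean and SD of each group beside them. For SRSF8, 20 of 26 KO libraries lie above all controls, while KHDRBS1 covers nearly the same range in both groups.

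HNRNPLL fell most among the members tested. It is known as a regulator of exon skipping in the CD45 transcript of lymphocytes, and is a paralog of HNRNPL. HNRNPLL ranged from 6.66 to 7.23 log2 CPM in controls (median 6.96) and from 6.28 to 6.99 in KO libraries (median 6.71). The 10 lowest KO libraries lay below all controls and none lay above. The log2 fold change was -0.27 (SE 0.0637, adjusted p = 0.00109), and its 95% interval ran from -23.9% to -9.47% in percent change. It was -0.325 (SE 0.0764, adjusted p = 0.00279) within AT-rich barcodes, and -0.20 (adjusted p = 0.00544) without the 6 KO libraries, all of which lay below the controls.

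HNRNPL held only 10.9 CPM on average, and ranged from 3.10 to 4.18 log2 CPM in KO libraries (median 3.48) and from 2.63 to 4.12 in controls (median 3.66), with a log2 fold change of -0.16 (SE 0.108, adjusted p = 0.276). Of the last 1000 bases of its main transcript, 561 are shared with an overlapping gene on the same strand, ENSG00000268083, so its count is uncertain. The log2 ratio of HNRNPL to HNRNPLL was -3.21 ± 0.351 in KO libraries (SD, n = 26) and -3.42 ± 0.460 in controls (SD, n = 11), a difference below the spread of either group.

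HNRNPR, a relative of SYNCRIP that acts in mRNA processing, ranged from 9.20 to 9.64 log2 CPM in controls (median 9.27) and from 8.98 to 9.45 in KO libraries (median 9.24). In all, 12 KO libraries lay below the lowest control, and 3 controls, at 9.45 to 9.64, lay apart from the other controls, which reached 9.34. Its log2 fold change was -0.11 (SE 0.0460) with an adjusted p of 0.0498, at the threshold. The call was lost when any of 28 of the 37 libraries was left out (-0.08, adjusted p = 0.185 without Control replicate 5), and within AT-rich barcodes (-0.07, adjusted p = 0.326). It was kept over all libraries with barcode class as covariate (-0.136, adjusted p = 0.0306).

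HNRNPD and HNRNPDL did not pass the test but varied far more among KO than among Control libraries. HNRNPD, or AUF1, binds AU-rich elements and promotes mRNA decay, and HNRNPDL is its paralog. Both genes lie on chromosome 4 of GRCh38, HNRNPD at chr4:82352498-82374503 and HNRNPDL at chr4:82422565-82430462. HNRNPD ranged from 9.34 to 9.46 log2 CPM in controls (median 9.42, SD 0.0320) and from 8.84 to 9.49 in KO libraries (median 9.39, SD 0.194). HNRNPDL ranged from 9.14 to 9.40 in controls (median 9.22, SD 0.0758) and from 8.56 to 9.47 in KO libraries (median 9.14, SD 0.250). The log2 fold changes were -0.11 (SE 0.0557, adjusted p = 0.127) and -0.11 (SE 0.0715, adjusted p = 0.225).

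The lowest values came from 6 KO libraries, picked out after their values were seen. KO replicates 4, 5, 10, 22, 24 and 25 held HNRNPD at 8.84 to 9.04 log2 CPM, whereas the lowest other KO library was at 9.26 and the lowest control at 9.34. The same 6 libraries were the lowest for HNRNPDL, at 8.56 to 8.85, while the other KO libraries ran from 8.999 to 9.47. Counting all 26 KO libraries, 10 lay below all controls for HNRNPD and 13 for HNRNPDL, with 2 and 1 above. The 6 libraries therefore do not hold the whole spread. The log2 ratio of the pair was 0.204 ± 0.112 in KO libraries (SD, n = 26) and 0.190 ± 0.0717 in controls (SD, n = 11). The last 500 bases of the transcripts of both genes share no exact run longer than 11 bases. The 6 libraries held 1225590 to 2052701 UMIs, and 5 of them had AT-rich barcodes and 1 a GC-rich barcode.

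Other members followed the same libraries. HNRNPC, which binds uridine tracts, was lowest among KO libraries in all 6, at 9.04 to 9.16 log2 CPM against at least 9.19 in the other KO libraries. HNRNPAB was highest in all 6, at 8.92 to 9.05 against at most 8.81. Of the 6 libraries, 5 were among the 6 lowest KO libraries for HNRNPLL, HNRNPM and HNRNPUL1, and 5 were among the 6 highest for SRSF4. KHDRBS1 did not follow them, with 2 of the 6 among its lowest. Over all genes tested, all 6 were the lowest KO libraries for 3.5% and the highest for 2.61%. Exactly 5 of the 6 were among the 6 lowest for 5.01% and among the 6 highest for 4.61%.

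The genes around HNRNPD showed the same order. Of 7 other genes tested within 1 Mb, 5 had at least 5 of the 6 libraries among their 6 lowest KO libraries, as had 51.8% of the 384 genes tested on chromosome 4. The share was 8.51% over all genes tested, 50.7% of 357 genes on chromosome 8 and 14.7% of 706 genes on chromosome 19. It was 6.76% or less on each of the other chromosomes. Chromosome 19 carries HNRNPM, HNRNPUL1 and HNRNPL. For HNRNPL, 1 of the 6 libraries was among the lowest and 3 were among the highest. The libraries were chosen by HNRNPD, a gene of chromosome 4, so these shares are a description without a test.

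**Figure D3:**
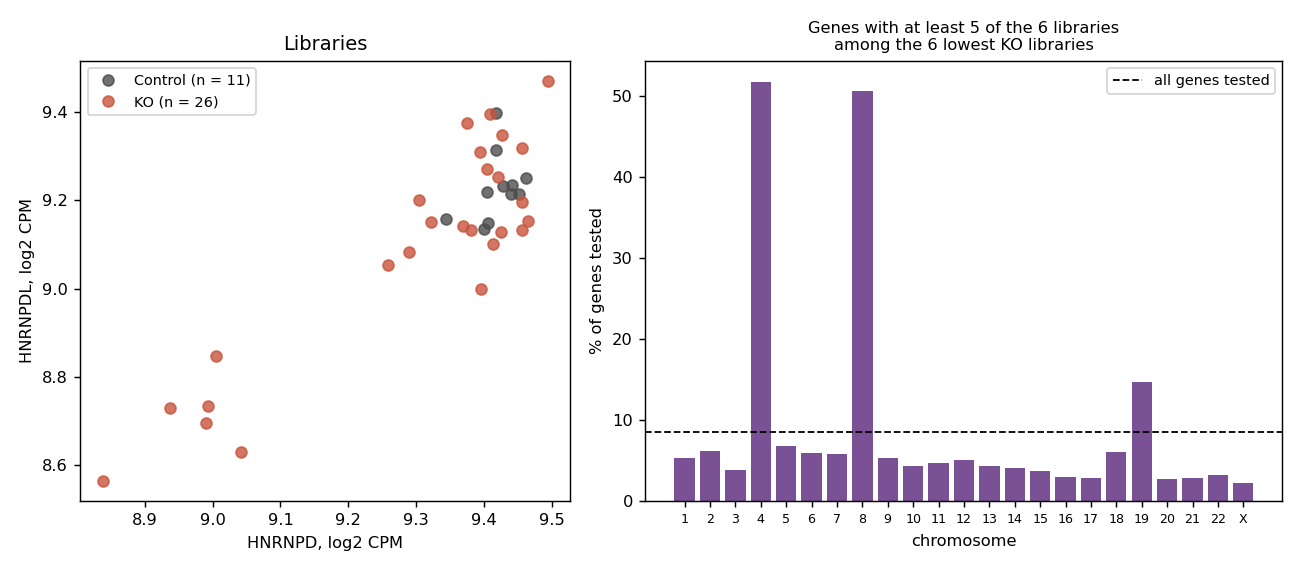
Left, log2 CPM of HNRNPD (x axis) and HNRNPDL (y axis) in each Control and KO library, with 6 KO libraries in the lower left corner. Right, percentage of the genes tested on each chromosome that had at least 5 of these 6 libraries among their 6 lowest KO libraries, with the share of all genes tested (8.51%) as a dashed line; chromosomes 4 and 8 stand at 51.8% and 50.7%.

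SRSF4 was another member with a wider spread in KO libraries. It ranged from 7.34 to 7.47 log2 CPM in controls (median 7.43, SD 0.0437) and from 6.94 to 7.57 in KO libraries (median 7.38, SD 0.166), with 7 KO libraries above and 9 below all controls. Its log2 fold change was -0.06 (SE 0.0509, adjusted p = 0.398). KO replicates 6, 14, 15, 16, 17 and 26 held SRSF4 at 6.94 to 7.28. They held KHDRBS1 at 8.72 to 8.81, within 8.72 to 9.05 over all KO libraries. These 6 libraries, too, were picked out after their values were seen. How many of all genes order them alike was not examined, so no link among the members is read from this.

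The same 6 libraries held 11 to 19 UMIs of SRSF12, an SR protein related to SRSF10 that was under the filter on low counts. Of the other KO libraries, replicate 1 also held 11 and none held more. Over all libraries SRSF12 counted 0 to 19 UMIs in KO libraries (median 4) and 0 to 2 in controls (median 1). In log2 CPM, 10 KO libraries lay above all controls, and 7 KO libraries and 1 control held none. The highest control was the shallowest library, Control replicate 7, with 1 UMI, and 17 KO libraries lay above all other controls. Summed over the groups, this was 2.3 CPM (95% Poisson interval 1.93 to 2.71) in KO and 0.37 (0.197 to 0.632) in Control libraries. These intervals cover counting error only and leave out the wide spread between KO libraries. Without the filter the fitted log2 fold change of SRSF12 was 2.38 (SE 0.563, adjusted p = 0.00307). SRSF12 was the only member past both thresholds in that fit. The share of all genes past them there is not given here, so this count is not read as a result about the members. SRSF10, a splicing repressor when dephosphorylated, was at 8.10 to 8.46 log2 CPM in KO libraries and 8.18 to 8.46 in controls, with a log2 fold change of 0.02 (SE 0.0369, adjusted p = 0.687).

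**Figure D4:**
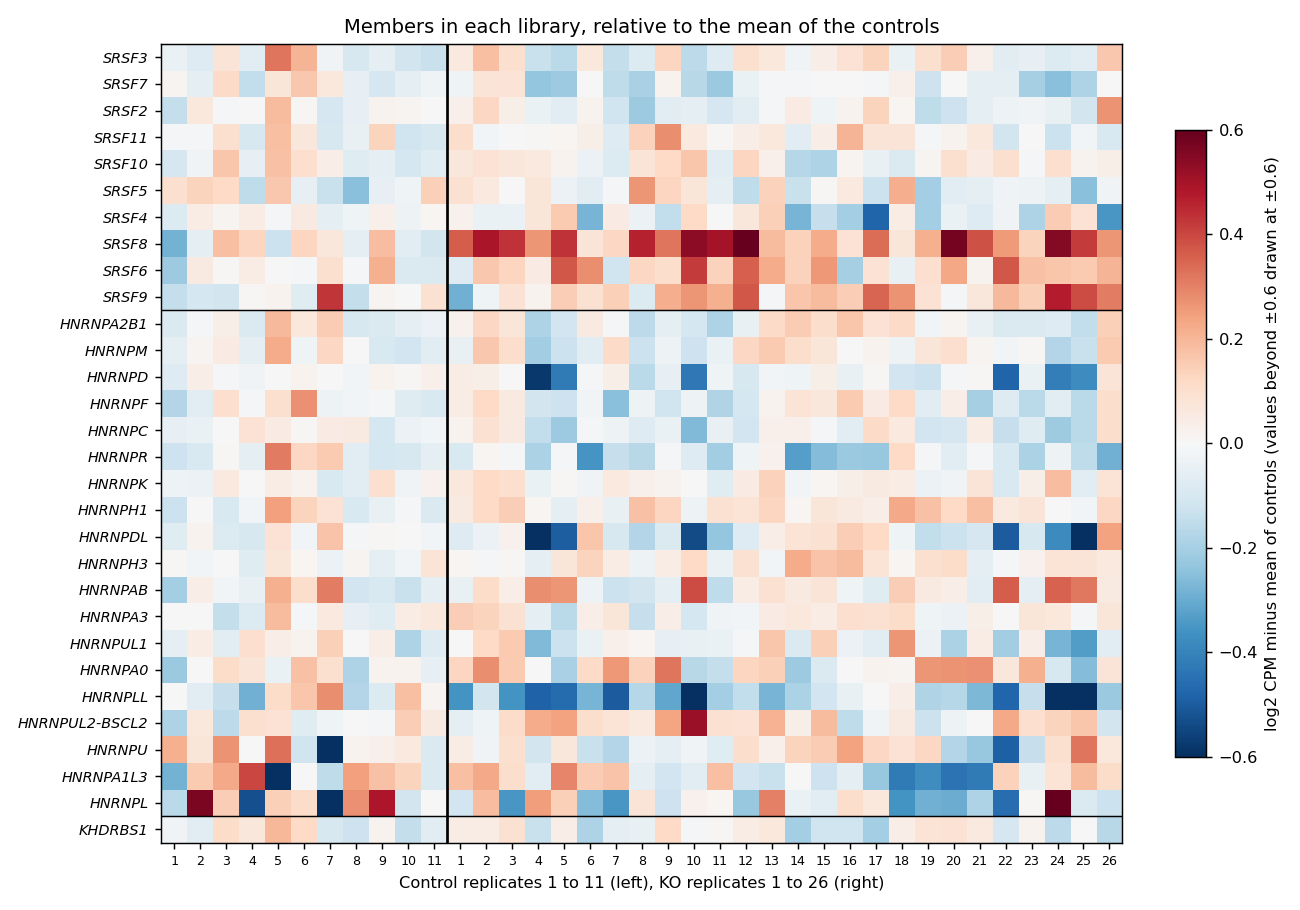
Level of the 30 members tested (rows, by family and falling abundance) in each library (columns, Control left of the black line and KO right), as log2 CPM minus the mean of the controls, with values beyond 0.6 in either direction drawn at that limit. Red cells of SRSF8 fill most of the KO columns, and KO replicates 4, 5, 10, 22, 24 and 25 are dark blue for HNRNPD and HNRNPDL.

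Ratios of other relatives within a library were compared in the same way. The widest difference was that of SRSF10 to SRSF12, at 7.40 ± 1.24 in KO libraries (SD, n = 26) and 8.68 ± 0.947 in controls (SD, n = 11), which rests on the few UMIs of SRSF12. The log2 ratio of SRSF4 to SRSF6 was 0.771 ± 0.206 in KO libraries (SD, n = 26) and 0.981 ± 0.0980 in controls (SD, n = 11), with 14 KO libraries below all controls. SRSF5 to SRSF6 gave 0.826 ± 0.216 and 0.981 ± 0.206, and SRSF3 to SRSF7, both of which have a part in mRNA export, gave 0.662 ± 0.0682 and 0.575 ± 0.101. HNRNPH1 to HNRNPF, which bind runs of guanines, gave -0.101 ± 0.116 and -0.209 ± 0.105, with 8 KO libraries above all controls. HNRNPU, a nuclear scaffold protein, to HNRNPUL1 gave -1.64 ± 0.214 and -1.67 ± 0.339. SRSF1 held at most 8 UMIs in any library, so its ratio to SRSF9 is not read.

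The other members tested had log2 fold changes between -0.07 (SRSF7, adjusted p = 0.141) and 0.09 (HNRNPUL2-BSCL2, adjusted p = 0.164). HNRNPUL2-BSCL2 is a read-through gene whose last 1000 bases all lie in BSCL2, so its count cannot be told apart from that gene. HNRNPA1L3 shares an exact run of 248 bases with transcripts of HNRNPA1 and its count of 2326 UMIs is uncertain for the same reason. The steadiest members were HNRNPK, which binds cytosine tracts, and HNRNPH3, with biological coefficients of variation of 0.0529 and 0.0556. Only 0.444% and 1.15% of the genes of like level varied as little or less, while HNRNPDL, at 0.140, varied more than most (percentile 85.5).

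Genes of the wider splicing machinery were taken from 7 lists. Of 87 genes tested, 7 were higher and 15 lower in KO libraries at an adjusted p below 0.05 (17.7% and 16.2% of all genes tested), and their median log2 fold change was -0.04. The Sm core, the ring of proteins around the spliceosomal snRNAs, had 5 of 7 genes lower, with all 7 values below 0 and a median of -0.19. SNRPD2 ranged from 10.21 to 10.59 log2 CPM in controls and from 9.76 to 10.57 in KO libraries, with 14 KO libraries below all controls (log2 fold change -0.22, SE 0.0620, adjusted p = 0.00517). SNRPE had the largest decrease of the list (-0.22, SE 0.0790, adjusted p = 0.0250). Within AT-rich barcodes SNRPE (-0.13, adjusted p = 0.358), SNRPF (-0.15, adjusted p = 0.147) and SNRPD2 (-0.21, adjusted p = 0.0515) did not pass. The count of lower Sm core genes was 2 there, and 2 without the 6 KO libraries that stood apart.

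The U2 and SF3 proteins, which bind the branch site, had 3 of 13 genes lower (SF3A3, SNRPA1 and SNRPB2) and none higher. The 3 were 23.1% of the list, while 16.2% of all genes tested were called lower and 17.7% higher. Within AT-rich barcodes these calls were lost (adjusted p = 0.0605, 0.0846 and 0.0962). The log2 fold changes there were -0.151, -0.133 and -0.154, in place of -0.168, -0.158 and -0.183 over all libraries. The extremes of the list were SF3A2 (-0.37, SE 0.151, adjusted p = 0.0560) and SF3B2 (0.07, SE 0.0331, adjusted p = 0.0943). In the list of U1 and early recognition factors 1 of 12 genes, SNRPC, was lower (-0.17, SE 0.0478, adjusted p = 0.00497), and ZRSR2 (-0.27, adjusted p = 0.352) and LUC7L3 (0.08, adjusted p = 0.158) marked its range. None of 13 tri-snRNP genes passed, from SNRNP40 (-0.10) to PRPF3 (0.07). In the PRP19 complex, CDC5L was higher (0.15, adjusted p = 0.0214) and BCAS2 lower (-0.19, adjusted p = 0.0343) of 8 genes, and both calls were lost within AT-rich barcodes (adjusted p = 0.105 and 0.111).

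Other splicing regulators had 5 genes higher and 5 lower of 25 tested. This was 20% in each direction, near the 17.7% and 16.2% of all genes tested. MBNL3, a muscleblind protein, was the only gene of the 7 lists past both thresholds. It ranged from 3.56 to 4.62 log2 CPM in controls (median 4.37) and from -0.35 to 3.74 in KO libraries (median 1.59), and 25 of 26 KO libraries lay below all controls (log2 fold change -2.41, SE 0.287, adjusted p = 2.68e-08). MBNL1 and MBNL2 were lower too, at -0.37 (SE 0.0675, adjusted p = 3.68e-05) and -0.36 (SE 0.101, adjusted p = 0.00547), and the MBNL2 call was lost after thinning all libraries to the smallest total (-0.265, adjusted p = 0.180). The polypyrimidine tract binding protein PTBP2 had the largest rise of the list (0.27, SE 0.0806, adjusted p = 0.00850).

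Of 9 kinases, phosphatases and importers of SR proteins, SRPK2 was higher (0.20, SE 0.0600, adjusted p = 0.00781), with 12 KO libraries above all controls, and CLK1 had the lowest value (-0.14, adjusted p = 0.143). One call was 11.1% of this list, while 17.7% of all genes tested were called higher. The SRPK2 call was lost within AT-rich barcodes (0.15, adjusted p = 0.129). Among 4 tested transcripts known as splicing targets of KHDRBS1, the amount of BCL2L1, an inhibitor of apoptosis, was higher in KO libraries (0.32, SE 0.117, adjusted p = 0.0300), with 10 KO libraries above all controls. CD44 (0.46, SE 0.466, adjusted p = 0.479) and CCND1 (-0.41, SE 0.382, adjusted p = 0.434) did not pass. The BCL2L1 call was lost without the 6 KO libraries that stood apart (0.24, adjusted p = 0.124) and without Control replicate 1 (0.29, adjusted p = 0.0649) or 5 (0.28, adjusted p = 0.0613). It was also lost with limma-voom (adjusted p = 0.0527), without the filter on low counts (0.0739) and after thinning (0.151).

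**Figure D5:**
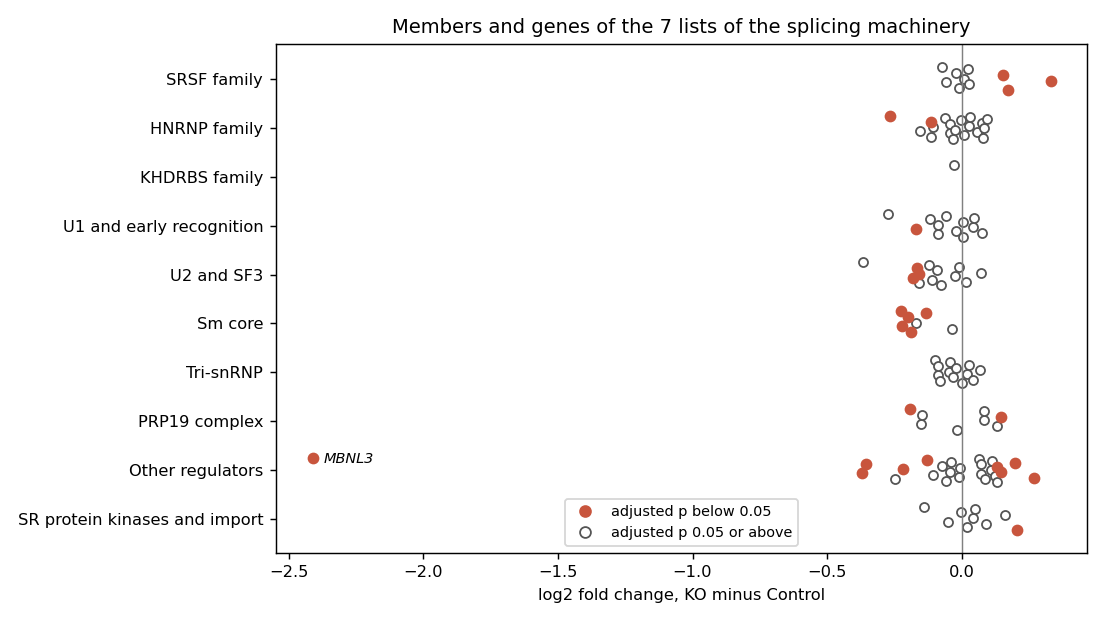
Log2 fold change of KO against Control libraries (x axis) of the tested members by family and of the genes of 7 lists of the splicing machinery (y axis), filled where the adjusted p is below 0.05. Of the 7 Sm core genes 5 are filled and lie left of 0, and MBNL3 lies far to the left at -2.41.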

How the data were processed

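Gene expression of K562 cells, 26 libraries labelled KO and 11 labelled Control, was measured by bulk SCRB-seq. The authors processed the reads with zUMIs, mapped them to hg38 with STAR, and used the annotation Ensembl GRCh38.84 to count UMIs for each gene. The submitters' processing notes give STAR version 2.6.0a, and the zUMIs version is not given in the sources used here. The deposited values are these UMI counts, 1 column per library, without normalization. Each UMI is 1 captured molecule, so counts do not scale with transcript length.

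Columns were matched to samples by their barcode, and replicates were numbered in order of deposit. Total counts ranged from 563235 to 4710809 per library, which sets the counting error of low genes. Chi-square tests compared the 380 pairs of libraries of the same group on genes with at least 10 UMIs in the pair. All pairs differed by more than sampling noise (smallest chi-square per degree of freedom 1.14), so none was treated as a repeat deposit of another library. This does not show that libraries came from separate clones or cultures. For 31323 of the 32055 identifiers, GENCODE release 44 (GRCh38) gave the symbol and position. It is a later annotation than the one counted on.

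The main test was the robust quasi-likelihood test of edgeR 4.0.16 (in R 4.3.3), with group as the only term, after its default expression filter and TMM normalization. P-values were adjusted by Benjamini and Hochberg's method over the 10661 genes tested. Thresholds were an adjusted p of 0.05, and the same with an absolute log2 fold change of 0.5. Standard errors were derived from the F statistic, whose root is the ratio of the log2 fold change to its error, and 95% intervals were taken from it by the normal approximation. Levels are log2 CPM with a prior count of 2. KHDRBS1 was also tested by a two-sided permutation test with 100000 resamples. The steps were tested on simulated data.

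Alternatives were limma-voom (limma 3.58.1), DESeq2 1.42.0, scaling by RLE or by library size alone, omitting the filter or asking for a mean level of 10 CPM, a covariate for barcode class, the AT-rich barcodes on their own, thinning to the smallest total, and leaving out each library in turn, the shallowest library, the KO library with barcode GGCCAC, or 6 KO libraries chosen after seeing the data. For paralog ratios, pseudocounts of 0.5 and 5 UMIs were tried in place of 1.

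The members, the gene lists and the tests were chosen with earlier results of these data known. Genes were named by rule: KHDRBS1, members past both thresholds, up to 5 members with the largest rise and 5 with the largest fall among those with an adjusted p below 0.05, the highest member of each family, members of paralog pairs, and in each list the genes past both thresholds or else the largest rise and fall. Other genes named were chosen after their values were seen. Protein features of the members were planned but not analysed here, and other experiments of the study were not used here.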

Additional observations from a re-analysis of the deposited data

How the results depend on the processing

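SRSF8 (log2 fold change 0.31 to 0.39) and HNRNPLL (-0.33 to -0.20) kept their direction and an adjusted p below 0.05 in every alternative. HNRNPR lost its call in 28 of 37 fits without 1 library and in most other settings, so that 1 member was lower (in place of 2) with limma-voom, DESeq2, scaling by RLE or library size alone, no filter, a mean of at least 10 CPM, AT-rich barcodes alone, thinning, without the shallowest library and without the 6 KO libraries lowest in HNRNPD (an alternative chosen after seeing the data). Thinning left SRSF9 at 0.02 (adjusted p = 0.912) and SRSF6 at 0.08 (adjusted p = 0.562), and no filter gave SRSF6 an adjusted p of 0.114, SRSF9 one of 0.115. With library size alone 5 members were higher (in place of 3, HNRNPH1 and HNRNPH3 added). HNRNPH1 also passed with limma-voom (adjusted p = 0.0476), DESeq2 (0.0338), without the 6 KO libraries (0.0338) and without Control replicate 5 (0.0131) or 6 (0.0369), and HNRNPA0 passed after thinning (0.0397). Without the filter 1 member (SRSF12) passed both thresholds. Leaving out 1 library gave 2 to 4 members higher, 1 to 2 lower, and 4 to 6 Sm core genes lower. The 7 lists had 11 genes higher with library size alone, 3 without the filter or after thinning, and 4 higher and 6 lower within AT-rich barcodes. Sm core genes lower were 3 with barcode class as covariate, 2 within AT-rich barcodes and 2 without the 6 KO libraries. Apart from the AT-rich fit, the shares of all genes called in these fits are not given here. Changes in the counts are therefore not read as results about the members or lists.

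Log2 fold changes close to 0 changed sign, none of them called: KHDRBS1 with library size alone (0.0021) and AT-rich barcodes (0.00363), and HNRNPA2B1 with limma-voom (0.00817), DESeq2 (0.00126), library size alone (0.029), at least 10 CPM (0.00051), without the shallowest library (0.0125) and without the 6 KO libraries (0.0317). Library size alone also gave HNRNPUL1 0.00859, SRSF2 0.00952 and SRSF5 0.0212. Barcode class as covariate gave HNRNPA1L3 0.00252, HNRNPM -0.0124 and SRSF11 -0.00121, and AT-rich barcodes gave HNRNPM -0.0091 and SRSF2 0.0366. Thinning gave HNRNPU 0.0465, SRSF3 -0.00607 and SRSF5 0.0514, no filter gave HNRNPM -0.00224, and leaving out the 6 KO libraries gave HNRNPUL1 0.0252. Without 1 library the range was -0.00842 to 0.0229 for HNRNPA2B1, -0.0457 to 0.00486 for HNRNPF, -0.000339 to 0.0343 for HNRNPM, -0.0326 to 0.00206 for SRSF2, -0.000794 to 0.0489 for SRSF3 and -0.0321 to 0.00844 for SRSF5. The cause of these changes was not tested. Shares of UMIs, and differences between the groups in the ratios of relatives, moved by less than 1 SD in every alternative, while the ratios themselves moved by more with a pseudocount of 5 where a relative held few UMIs (SRSF10 to SRSF12 from 8.68 to 7.13 in controls). Without the shallowest library, 18 KO libraries (in place of 5) lay below all controls in that ratio.

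No paired analysis was possible because the labels carry no replicate numbers. Clone and gRNA are not in the labels, and barcode class and group partly overlap. KHDRBS3, SRSF1, SRSF12 and HNRNPCL1 held only 264, 67, 152 and 25 UMIs in all libraries together. The cause of these low counts was not tested, and they are not read as absence of the transcript.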
